A study of Homo sapiens with 15 samples.

Results

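The genes described here are PPT1, which encodes the lysosomal enzyme palmitoyl-protein thioesterase 1, and 7 further genes that cause neuronal ceroid lipofuscinosis when mutated: TPP1, CLN3, CLN6, CLN8, MFSD8, DNAJC5 and GRN. They were matched by gene symbol, and 9 of the 60107 listed gene identifiers carried one of the 8 symbols. CLN3 had 2 identifiers, and the second (ENSG00000261832) held 1 read, in a single library. RNA was sequenced from MIA PaCa-2 cells, an established human pancreatic carcinoma line, in 15 libraries that formed 5 groups of 3. The cells received vehicle (Ctrl) or 5 µM of Lys05, BAQ12, BAQ13 or an agent labelled BAQ12O, each for 24 h. Lys05 is an inhibitor of autophagy that accumulates in lysosomes, BAQ12 and BAQ13 are hybrids of Lys05 with a lysosomal detergent that assemble into nanoparticles (NPs), and BAQ12O is described no further. All groups are the same line, with no genetic change named, and nothing in the labels says whether the 3 libraries of a group came from separate cultures, so p-values measure the spread between these libraries, which may be technical.

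Neuronal ceroid lipofuscinoses are inherited storage diseases in which autofluorescent material builds up in lysosomes, most severely in neurons. PPT1 removes fatty acyl chains from cysteines of proteins that are being degraded, and TPP1 is a serine protease that cuts tripeptides from the amino termini of peptides. CLN3 and MFSD8 are membrane proteins of the lysosome, CLN6 and CLN8 act in the endoplasmic reticulum in the export of newly made lysosomal enzymes, DNAJC5 is a palmitoylated co-chaperone, and GRN encodes progranulin, which is cut into granulins in lysosomes. PPT1 has been described as a protein that dimeric quinoline inhibitors of lysosomes bind, so its own transcript and those of its disease relatives bear on the question of how cells respond to Lys05 and the BAQ NPs. Many lysosomal genes are regulated together by transcription factors of the MiT/TFE family, which bind short palindromic sites near gene starts.

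Promoter windows from RefSeq (GRCh38.p14, 250 bases before to 50 bases after a start of transcription) were found for 7 of the 8 genes. Windows of the 4 genes that held a searched site are shown. Whether these sites bear on the levels described below was not tested. Capitals mark TCANNTGA (N is any base) and CACGTG, both palindromic and therefore read alike on either strand, and a site TCACGTGA counts for both. The PPT1 window is chr1:40097203-40097502, the TPP1 window chr11:6619373-6619672, the CLN3 window chr16:28492025-28492324 (all minus strand) and the GRN window chr17:44345052-44345351 (plus strand).
PPT1: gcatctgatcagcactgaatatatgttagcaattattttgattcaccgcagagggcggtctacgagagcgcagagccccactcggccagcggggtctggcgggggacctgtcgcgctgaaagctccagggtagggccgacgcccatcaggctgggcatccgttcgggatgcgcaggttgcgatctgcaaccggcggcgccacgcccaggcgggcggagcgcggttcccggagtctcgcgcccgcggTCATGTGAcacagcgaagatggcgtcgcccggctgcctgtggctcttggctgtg
TPP1: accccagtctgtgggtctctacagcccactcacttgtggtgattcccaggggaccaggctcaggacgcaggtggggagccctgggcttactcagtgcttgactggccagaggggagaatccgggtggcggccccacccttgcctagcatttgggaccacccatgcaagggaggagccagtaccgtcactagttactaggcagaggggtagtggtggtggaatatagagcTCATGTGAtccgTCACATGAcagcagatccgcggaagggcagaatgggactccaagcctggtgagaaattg
CLN3: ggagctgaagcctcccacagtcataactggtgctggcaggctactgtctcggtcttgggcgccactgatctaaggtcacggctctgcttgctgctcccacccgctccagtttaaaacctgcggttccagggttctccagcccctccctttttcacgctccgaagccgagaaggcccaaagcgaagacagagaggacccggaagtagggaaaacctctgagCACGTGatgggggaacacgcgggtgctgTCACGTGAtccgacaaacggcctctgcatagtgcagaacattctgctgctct
GRN: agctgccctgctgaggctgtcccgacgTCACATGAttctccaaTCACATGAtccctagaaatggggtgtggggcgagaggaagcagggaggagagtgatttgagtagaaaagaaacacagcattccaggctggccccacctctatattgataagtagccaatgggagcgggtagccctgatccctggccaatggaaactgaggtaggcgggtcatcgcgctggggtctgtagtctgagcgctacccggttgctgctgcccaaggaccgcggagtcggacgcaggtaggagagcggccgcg

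TPP1 held 2 TCANNTGA sites, beginning 21 and 9 bases before its start, PPT1 held 1 beginning 4 bases before its start, and GRN held 2 at 223 and 207 bases before its start. CLN3 held TCACGTGA beginning 2 bases before its start, and a further CACGTG that began 30 bases before it. CLN3 has a second window with its start 8 bases further upstream, which contains the same letters. No match was found in the windows of CLN6, MFSD8 and DNAJC5. Among all 35116 promoter windows of the same length, 7.31% held TCANNTGA and 7.26% held CACGTG. The motifs were chosen after the sequences had been viewed, and a match describes letters and not binding.

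In these libraries TPP1 mRNA rose with BAQ13 and with BAQ12O, CLN3 mRNA rose with BAQ13, and no other member passed the test in any comparison with vehicle. PPT1 itself was not called in any comparison, and its lowest group mean was that of BAQ13. CLN8 was at the limit of detection throughout. The values are normalised counts, that is, reads of a gene divided by a size factor of its library, and a library held 1586566 to 2500551 reads on genes. Differences are log2 fold changes on the log2(normalised count + 1) scale, which understates the change of genes with few reads, and were tested with limma across 10495 genes that passed a filter on low counts. A gene was called when its p-value, adjusted by the Benjamini-Hochberg method over all genes tested, was under 0.05. In bulk RNA, fewer cells of a kind and less RNA per cell cannot be told apart.

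Of the epithelial markers, KRT8, KRT18 and KRT19 were present in every library, EPCAM had reads in 1 of the 15 libraries and CDH1 stayed at or below 6.28 normalised counts. The 5 epithelial markers summed to between 1715 and 1795 in the vehicle libraries and to between 1362 and 1379 with BAQ13, where KRT8 fell by 0.85 and KRT18 by 0.50 on the log2 scale (adjusted p = 3.8e-05 and 0.0026, limma) while KRT19 was 0.12 above vehicle (adjusted p = 0.45). With BAQ12O the sums lay between 1364 and 1487, and KRT8 fell by 0.60 and KRT18 by 0.43 (adjusted p = 0.0044 and 0.025). KRT8 also fell with BAQ12, by 0.58 (adjusted p = 0.0061). The sums were likewise wholly below vehicle with Lys05, between 1388 and 1574, and with BAQ12, between 1381 and 1556. With Lys05 no epithelial marker was called, though 2 had unadjusted p-values under 0.05 by limma, as did 4.98% of all genes. The part of these shifts in the results below was not tested. Of the mesenchymal markers, VIM was between 9198 and 10781 in all libraries and COL1A2 fell by 0.54 with BAQ13 (adjusted p = 0.0043) and by 0.56 with BAQ12 (adjusted p = 0.011). Of the endothelial markers, PECAM1 had no reads and CDH5 was between 50.2 and 58.9 in vehicle, between 23.9 and 57.8 with Lys05, BAQ12 and BAQ13, and between 67.6 and 75.3 with BAQ12O (adjusted p = 0.50). PRSS1, CPA1 and GCG had no reads, INS had 1 read in 1 library, and the 2 leukocyte markers together stayed at or below 11.4. Libraries BAQ12-3 and BAQ13-1 stood apart from the rest: the root mean square log2 difference of BAQ12-3 from the other libraries of its group was 0.62 against 0.22 to 0.40 elsewhere, and in both libraries genes of high GC content were raised, by 0.23 and 0.16 on the log2 scale per 10 percentage points of GC against −0.02 to 0.09 in the other 13.

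PPT1 (ENSG00000131238, chromosome 1, 40071461-40097727, minus strand, GRCh38) was read at 187, 165 and 172 normalised counts in the vehicle libraries. The values were 169, 179 and 180.2 with Lys05, 159.6, 168 and 171 with BAQ12, 148, 162 and 153 with BAQ13, and 174, 155 and 169.6 with BAQ12O. All 3 BAQ13 libraries lay below all vehicle libraries, whereas the other 3 treated groups overlapped vehicle. The BAQ13 difference was −0.18 (95% interval −0.37 to 0.02, adjusted p = 0.32), and 14.4% of all genes tested had every BAQ13 library below every vehicle library. The other differences were 0.01 ± 0.09 (SE) for Lys05, −0.07 ± 0.09 for BAQ12 and −0.07 ± 0.09 for BAQ12O, with intervals that together ran from −0.27 to 0.21. An increase of PPT1 by more than 0.21, or a decrease by more than 0.37, was thus outside the 95% interval of all 4 comparisons.

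The spread of PPT1 within groups was small. The root mean square of its coefficients of variation in the 5 groups was 4.87%, below the 7.74% that counting its 123 to 225 reads per library alone would give. The 5 genes whose levels across the 15 libraries, each relative to its own mean, were most like those of PPT1 among 8167 genes were ZMPSTE24, CDC5L, UBXN4, RPAP2 and SLC16A1. Their root mean square log2 differences from PPT1 lay between 0.06 and 0.07. By the same measure DNAJC5 was in place 3144, TPP1 in place 6365, MFSD8 in place 6487, GRN in place 7201 and CLN3 in place 7953, while CLN6 was below the level this ranking used. The SD of PPT1 over the 15 libraries was only 0.09 on the log2 scale. With a spread this near counting error, the order cannot tell which genes vary together with PPT1. Counting alone would give 17.6% for CLN3 and 18.2% for MFSD8, which adds to their distance. PPT1 shares 1189 exonic bases (23.4% of its exonic length) with CAP1 on the opposite strand, and the sources used here do not state whether counting used strand. CAP1 held 7227 reads over the 15 libraries, against 2558 for PPT1. An effect of this overlap on the PPT1 values was not tested.

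**Figure D1:**
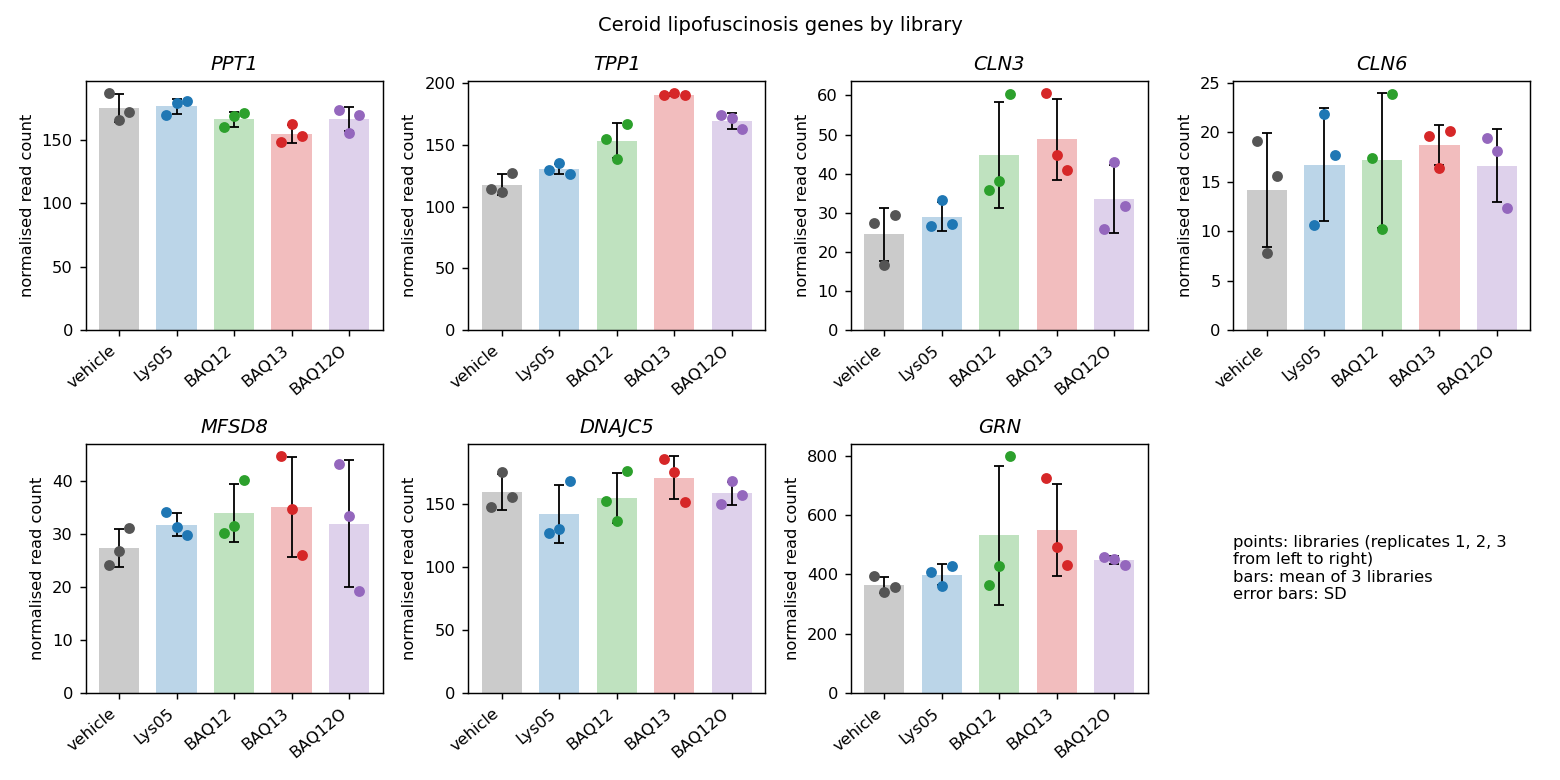
Normalised counts (vertical axes, linear and starting at 0) of the 7 tested genes in each of the 15 libraries, by group. Points are libraries, bars are means of 3 and error bars are SD. TPP1 in the BAQ13 libraries lies between 190.2 and 192, above every other library, while PPT1 is nearly level across groups.

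TPP1 (ENSG00000166340, chromosome 11, 6612763-6619485, minus strand) gave 115, 112 and 128 normalised counts in vehicle and 129.9, 135 and 127 with Lys05. The counts were 155, 139 and 167 with BAQ12, 190.4, 192 and 190.2 with BAQ13, and 175, 172 and 163 with BAQ12O. The means ran in the order BAQ13 (191 ± 1.16, SD, n = 3), BAQ12O (169.6 ± 6.21), BAQ12 (154 ± 14.3), Lys05 (131 ± 4.28) and vehicle (118 ± 8.48). Libraries overlapped between BAQ12O and BAQ12 and between Lys05 and vehicle, and did not overlap between the other neighbours in that order. Each BAQ12, BAQ13 and BAQ12O library lay above every vehicle library, against 7.75%, 14.5% and 12.5% of all genes tested.

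Against vehicle, TPP1 rose by 0.69 ± 0.10 (SE) with BAQ13 (adjusted p = 0.00021, limma) and by 0.52 ± 0.10 with BAQ12O (adjusted p = 0.0093). By p-value it ranked 102 among the genes tested with BAQ13. With BAQ12 the difference was 0.38 (95% interval 0.17 to 0.58, adjusted p = 0.10), and with Lys05 it was 0.15 (−0.06 to 0.36, adjusted p above 0.99), so neither was called. The BAQ13 call held under all 28 other settings, with values between 0.66 and 0.75 and adjusted p between 4.2e-06 and 0.020. The BAQ12O call was lost in 4 of 28, when Ctrl-1, Ctrl-2 or BAQ12O-2 was left out (adjusted p = 0.054, 0.065 and 0.051) and in a test of 2 samples per gene (0.070), over a range of 0.00019 to 0.070. The coefficient of variation within groups was 5.71%, where counting alone would give 8.23%.

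CLN3 (ENSG00000188603, chromosome 16, 28474111-28495575, minus strand) was read at 27.4, 16.7 and 29.4 normalised counts in vehicle and at 26.6, 33.3 and 27.1 with Lys05. The values were 35.8, 38.3 and 60.3 with BAQ12, 60.7, 44.7 and 41.1 with BAQ13, and 25.9, 42.9 and 31.7 with BAQ12O. All BAQ12 and BAQ13 libraries lay above all vehicle libraries, which was true of 7.75% and 14.5% of all genes tested, and BAQ12O and Lys05 overlapped vehicle. The highest values came from BAQ13-1 and BAQ12-3, the libraries in which high-GC genes were raised, and the CLN3 transcript has 57.8% GC against a median of 47.2% over the genes used for that slope.

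CLN3 rose by 0.98 ± 0.26 with BAQ13 (95% interval 0.44 to 1.52, adjusted p = 0.028). It was 0.84 above vehicle with BAQ12 (0.30 to 1.38, adjusted p = 0.18), 0.44 with BAQ12O (−0.09 to 0.98, adjusted p = 0.49) and 0.27 with Lys05 (−0.27 to 0.81), none of them called. After a correction of each library for GC content the BAQ13 difference was 0.90 and still called. The call was lost without BAQ13-1 (adjusted p = 0.14), BAQ13-2 (0.070), Ctrl-1 (0.0501) or Ctrl-2 (0.16), with a term for the replicate number (a block, 0.051) and in the test of 2 samples (0.20), and it held in 23 of 29 settings, over a range of adjusted p from 0.0030 to 0.20. It rested on 15 to 65 reads per library. The second CLN3 identifier shares 2480 exonic bases (25.2%) with the first, so reads in that stretch may not have been assigned to either.

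GRN (ENSG00000030582, chromosome 17, 44345086-44353102, plus strand) gave 394, 341 and 359 normalised counts in vehicle and 408, 360.3 and 428 with Lys05. The counts were 364, 429 and 801 with BAQ12, 727, 493 and 432 with BAQ13, and 460.3, 453 and 433 with BAQ12O. All libraries of BAQ13 and BAQ12O exceeded all of vehicle, as in 14.5% and 12.5% of all genes tested, while BAQ12 overlapped it and BAQ12-3 and BAQ13-1 stood far above the other 13. The differences were 0.56 (95% interval 0.10 to 1.01, adjusted p = 0.15) with BAQ13, 0.46 (0.00 to 0.91, adjusted p = 0.42) with BAQ12, 0.30 (−0.15 to 0.76, adjusted p = 0.60) with BAQ12O and 0.13 (−0.33 to 0.58) with Lys05.

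The spread of GRN within groups was 24.1%, or 5.04 times the 4.79% that counting alone gives, and it was the widest of the 7 tested genes relative to counting. Its transcript has 61.8% GC, higher than 91.8% of the genes used for the slope. Relative to the vehicle mean, GRN was higher by 1.14 in BAQ12-3, by 1.00 in BAQ13-1, by 0.44 in BAQ13-2, by 0.25 in BAQ13-3, and by 0.00 and 0.24 in BAQ12-1 and BAQ12-2. After the correction for GC content the difference was 0.44 with BAQ13 (adjusted p = 0.12) and 0.32 with BAQ12 (adjusted p = 0.43). Without BAQ12-3 the BAQ12 difference was 0.12, and without BAQ13-1 the BAQ13 difference was 0.34. With both libraries left out together, GRN was 0.34 above vehicle with BAQ13 and was then called (adjusted p = 0.0047). It was also called without BAQ12-3 alone (adjusted p = 0.0016), a library of another group that enters the shared estimate of the spread, and with only the 6 libraries compared (0.024). Leaving out BAQ12-3 raised the calls over all genes with BAQ13 from 606 to 1436. In the other 26 of 29 settings GRN was not called, with adjusted p up to 0.51.

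**Figure D2:**
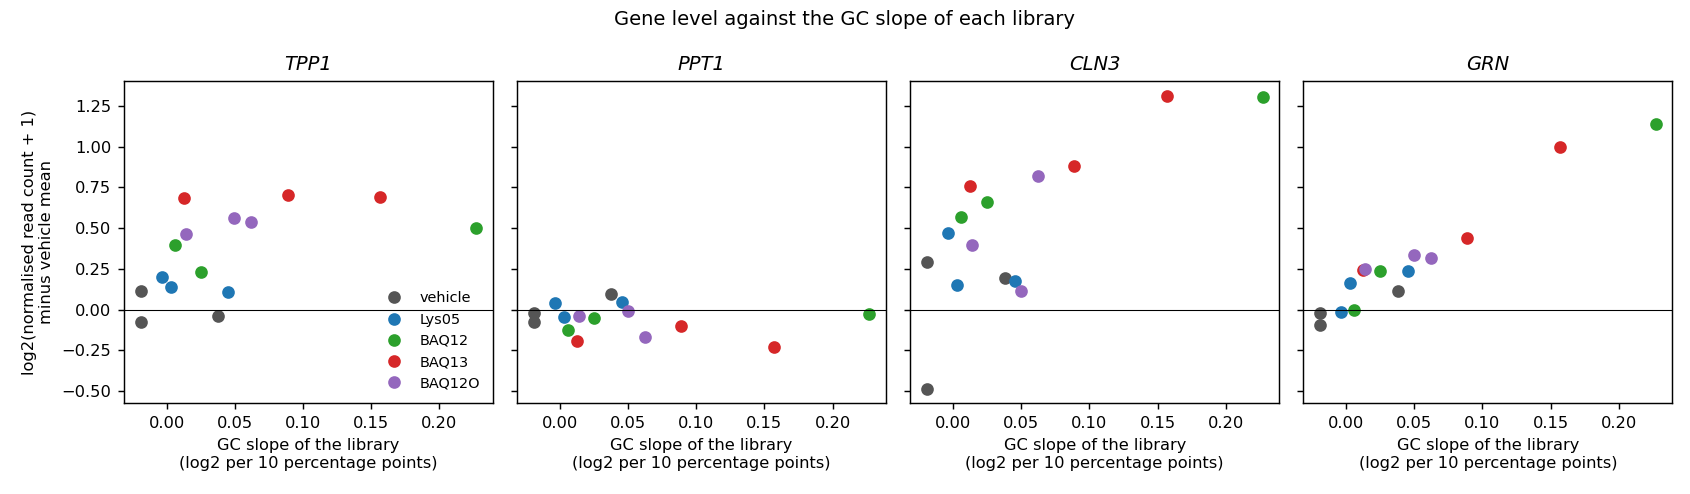
Log2 difference of TPP1, PPT1, CLN3 and GRN from the vehicle mean in each library (vertical axis) against the slope on GC content of the library's differences over genes (horizontal axis, log2 per 10 percentage points of GC). Points are libraries, coloured by group. GRN and CLN3 are highest in BAQ12-3 and BAQ13-1, the libraries with slopes of 0.23 and 0.16, whereas TPP1 is near 0.69 in all 3 BAQ13 libraries.

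MFSD8, a transporter-like membrane protein (ENSG00000164073, chromosome 4, 127917732-127966034, minus strand), gave 24.1, 26.8 and 31.2 normalised counts in vehicle and 34.1, 31.2 and 29.9 with Lys05. The values were 30.3, 31.5 and 40.2 with BAQ12, 44.8, 34.6 and 26.0 with BAQ13, and 43.1, 33.4 and 19.3 with BAQ12O. Every treated group overlapped vehicle. The differences were 0.21, 0.30, 0.32 and 0.15 in the order Lys05, BAQ12, BAQ13 and BAQ12O, each with an SE of 0.26. At 14 to 48 reads per library the intervals ran from −0.39 to 0.86 in all, and a change inside them was not detectable. MFSD8 shares 382 exonic bases (4.20%) with ABHD18 on the opposite strand.

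CLN6 (ENSG00000128973, chromosome 15, 68206992-68257211, minus strand) had the fewest reads of the tested members, 7 to 24 per library. Vehicle libraries gave 19.1, 7.82 and 15.6 normalised counts, Lys05 10.6, 21.9 and 17.7, BAQ12 17.4, 10.2 and 23.9, BAQ13 19.6, 16.4 and 20.1, and BAQ12O 19.4, 18.1 and 12.4. The groups overlapped throughout. No difference from vehicle was resolved, with 0.45 (−0.28 to 1.19) for BAQ13 as the highest of the 4 and intervals from −0.49 to 1.19 in all.

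CLN8 (ENSG00000182372, chromosome 8, 1755778-1801711, plus strand), which cooperates with CLN6 in carrying enzymes out of the endoplasmic reticulum, had 1 read in each of Ctrl-1, Lys05-2 and BAQ12O-1 and none in the other 12 libraries. A floor of 3 reads corresponds to 2.49 to 4.14 normalised counts, depending on the library, so levels below that were not detectable at this depth and CLN8 was not tested. The floor covers counting error only.

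DNAJC5 (ENSG00000101152, chromosome 20, 63895182-63936031, plus strand), whose product is itself anchored to membranes by palmitoylation, gave 148, 175 and 155 normalised counts in vehicle. The counts were 127, 130.2 and 168 with Lys05, 152, 136 and 176 with BAQ12, 186, 175 and 152 with BAQ13, and 149.8, 168 and 157 with BAQ12O. No group was separate from vehicle. Its differences were −0.18 (−0.45 to 0.10), −0.05 (−0.32 to 0.23), 0.10 (−0.18 to 0.37) and −0.01 (−0.28 to 0.27) in the order Lys05, BAQ12, BAQ13 and BAQ12O.

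Counted together, 2 of the 7 tested members were called with BAQ13, TPP1 and CLN3, both higher, where 5.77% of all genes tested were called and 3.58% were called higher. With BAQ12O 1 of 7 was called, TPP1, against 1.48% of all genes. With BAQ12 0 of 7 were called by limma, edgeR or DESeq2, against 0.981% of all genes, although TPP1, CLN3 and GRN had unadjusted p-values under 0.05, as did 11.8% of all genes. With Lys05 0 of 7 were called by any of the 3 tools and none passed unadjusted, against 0.238% of all genes. The median difference of the 7 genes was 0.15 with Lys05, 0.30 with BAQ12, 0.45 with BAQ13 and 0.28 with BAQ12O, where the median of all genes tested was 0.00 in each comparison. Each median was the estimate of a single gene: TPP1 with Lys05, MFSD8 with BAQ12, and CLN6 with BAQ13 and BAQ12O. None of these estimates was called, and MFSD8 and CLN6 had few reads. In a test of any difference among the 5 groups TPP1 was called (adjusted p = 0.0013) and the other 6 were not, against 3.03% of all genes. These comparisons share the vehicle libraries.

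**Figure D3:**
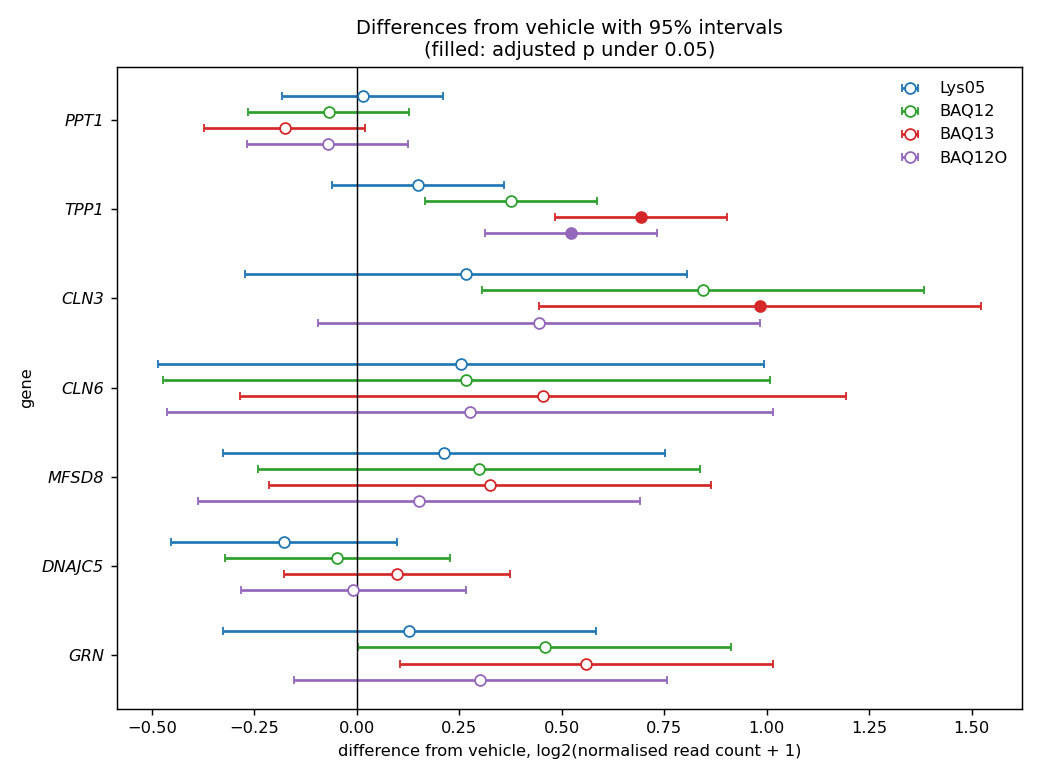
Log2 fold change against vehicle (horizontal axis) of the 7 tested genes with each agent. Points are estimates from limma, bars are 95% intervals, and filled points are called. TPP1 with BAQ13 and BAQ12O and CLN3 with BAQ13 are called, and the PPT1 intervals all span 0.

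All 4 agents were given at the same dose and for the same time, so they were also compared directly in 6 pairs, with p-values adjusted over 62970 tests (6 pairs of 10495 genes), of which 0.702% were called. TPP1 was higher with BAQ13 than with Lys05 by 0.54 (95% interval 0.33 to 0.75, adjusted p = 0.0096), and this was the only member and pair called. Each BAQ13 library exceeded each Lys05 library, which held for 12.3% of all genes tested. The call was lost without Lys05-1, Lys05-3 or BAQ13-2 (adjusted p = 0.052, 0.056 and 0.059), over a range of 0.0010 to 0.059.

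For the other pairs the TPP1 differences were 0.37 (0.16 to 0.58, adjusted p = 0.12) between BAQ12O and Lys05, 0.32 (0.11 to 0.53, adjusted p = 0.23) between BAQ13 and BAQ12, and 0.23 (0.02 to 0.44, adjusted p = 0.48) between BAQ12 and Lys05. BAQ12O was 0.15 above BAQ12 (−0.06 to 0.36) and 0.17 below BAQ13, a difference of −0.17 (−0.38 to 0.04). BAQ12 and BAQ13 were thus not separated by the test for TPP1, although each BAQ13 library lay above each BAQ12 library (6.02% of all genes tested), and the interval leaves room for differences up to 0.53. For CLN3 the difference between BAQ13 and BAQ12 was 0.14 (−0.40 to 0.68), that between BAQ13 and Lys05 was 0.72 (0.18 to 1.26, adjusted p = 0.33), and that between BAQ12O and BAQ13 was −0.54 (−1.08 to 0.00, adjusted p = 0.53).

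Every BAQ13 library lay below every Lys05 library for PPT1, as for 11.5% of all genes tested, with a difference of −0.19 (−0.39 to 0.01, adjusted p = 0.55), and its differences in the remaining pairs lay between −0.11 and 0.10. For GRN the widest difference was 0.43 (−0.02 to 0.89, adjusted p = 0.56), between BAQ13 and Lys05. DNAJC5 differed by 0.28 (0.00 to 0.55, adjusted p = 0.53) in the same pair. CLN6 and MFSD8 differences lay within ±0.20 in all 6 pairs, with intervals wide enough to hold 0.94 for CLN6.

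**Figure D4:**
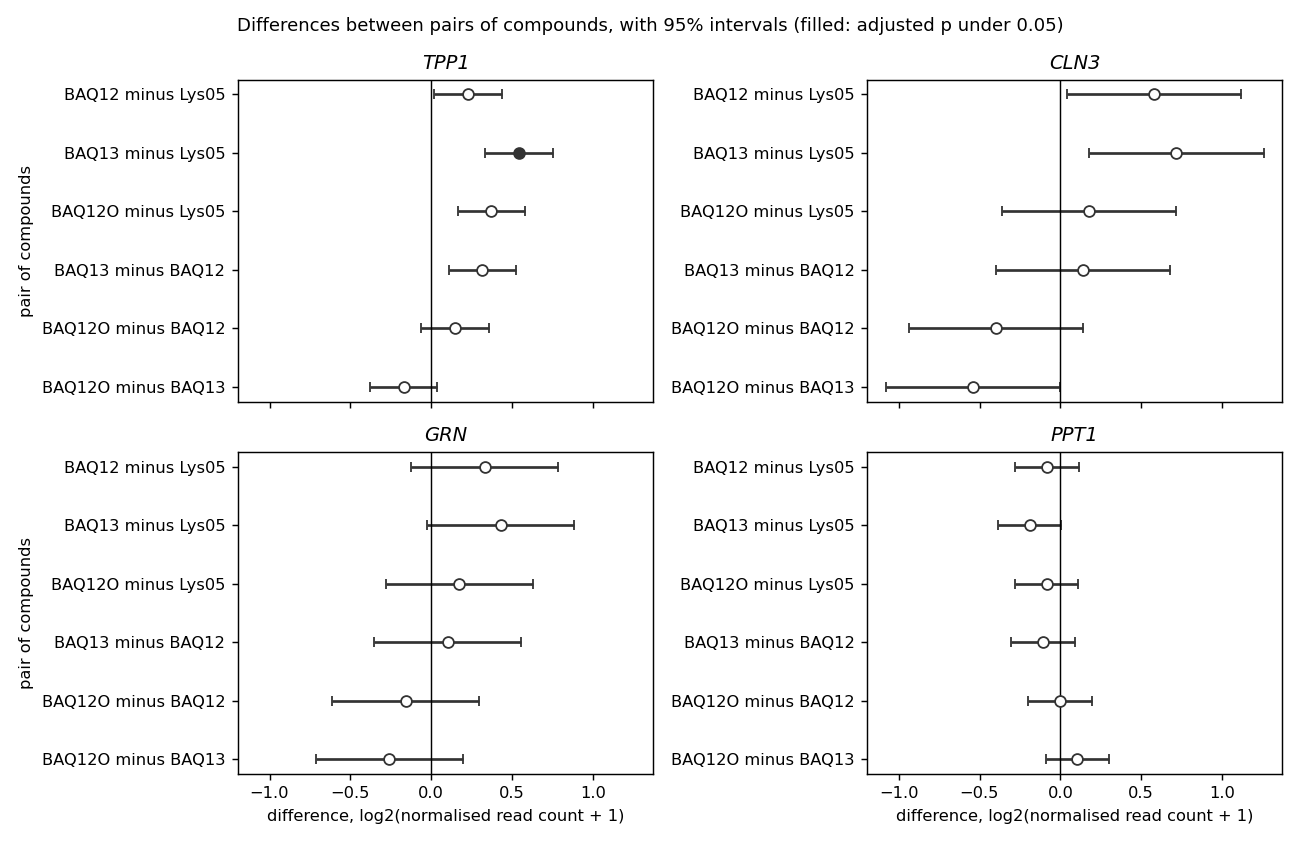
Log2 difference (horizontal axis) of TPP1, CLN3, GRN and PPT1 between each of the 6 pairs of agents at 5 µM and 24 h. Points are estimates, bars are 95% intervals, and the filled point is the called one, TPP1 between BAQ13 and Lys05 at 0.54.

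Further genes of ceroid lipofuscinosis include the aspartic protease cathepsin D (CTSD), the cysteine protease cathepsin F (CTSF), the lysosomal cation pump ATP13A2 and KCTD7. CTSF had no reads, and of the 3 tested none was called in any comparison with vehicle by limma, edgeR or DESeq2. With BAQ13, 2 of the 3 had unadjusted p-values under 0.05, as did 19.4% of all genes. KCTD7 was read at 52.3, 51.4 and 57.8 in vehicle and at 98.9, 86.6 and 68.7 with BAQ13, without overlap, a difference of 0.63 (0.22 to 1.04, adjusted p = 0.065). CTSD was read at 517, 416 and 415 in vehicle and at 615, 632 and 529.7 with BAQ13, also without overlap, a difference of 0.40 (0.10 to 0.70, adjusted p = 0.11). Every BAQ13 library lay above every vehicle library in 14.5% of all genes tested. Within BAQ12 both genes were highest in BAQ12-3, where high-GC genes were raised. CTSD was at 633 there against 446 and 445, and KCTD7 at 85.4 against 58.7 and 57.0. The part of GC content in these values was not tested. Without BAQ12-3 KCTD7 and CTSD were called (adjusted p = 0.0088 and 0.0074), where calls over all genes with BAQ13 rose from 606 to 1436. Both were also called with only the 6 libraries compared (0.021 and 0.022) and without BAQ12-3 and BAQ13-1 together (0.040 and 0.0056). KCTD7 was also called without BAQ13-3 (0.044). Of 29 settings, KCTD7 was called in 4 and CTSD in 3, with adjusted p up to 0.24 and 0.33. The CTSD difference ran from 0.26 to 0.50 over these settings. With BAQ12O, KCTD7 was 0.47 above vehicle (0.07 to 0.88, adjusted p = 0.29, limma) without overlap, as in 12.5% of all genes tested. CTSD was 0.28 above it (−0.03 to 0.58, adjusted p = 0.44) and overlapped. Each was called with BAQ12O in 2 of 29 settings. ATP13A2 differed by −0.09 with BAQ13, with an interval that spanned 0 (−0.80 to 0.62).

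PPT1 is 1 of 9 genes listed as depalmitoylases, enzymes that remove palmitate, though action on proteins is not established here for each. Of these 9, 8 were tested and none was called against vehicle by any of the 3 tools. With BAQ13 all 8 estimates were below 0, with a median of −0.28, and in 6 of the 8 genes every BAQ13 library lay below every vehicle library, which was true of 14.4% of all genes. The estimates were also mostly below 0 with the other agents, 7 of 8 with Lys05, 6 of 8 with BAQ12 and 7 of 8 with BAQ12O, all against the same vehicle libraries. The BAQ13 estimate of ABHD17B, −0.03, turned positive under some settings, at most to 0.062 after the GC correction. LYPLAL1 was read at 26.6, 23.4 and 34.9 in vehicle and at 13.1, 20.1 and 22.6 with BAQ13, a difference of −0.60 (−1.12 to −0.07, adjusted p = 0.19). ABHD10, a mitochondrial depalmitoylase, was read at 105, 103 and 132 in vehicle and at 98.9, 87.5 and 80.5 with BAQ13, a difference of −0.34 (−0.63 to −0.05, adjusted p = 0.17). LYPLA1, an acyl-protein thioesterase of the cytosol, went from 136, 149.6 and 177 to 94.2, 114 and 131, a difference of −0.45 (−0.97 to 0.07, adjusted p = 0.34). Within BAQ13, LYPLAL1 and LYPLA1 were lowest in BAQ13-1, and LYPLA1 was at 67.8 in BAQ12-3 against 172 and 163 in BAQ12-1 and BAQ12-2. BAQ13-1 and BAQ12-3 are the libraries in which high-GC genes were raised. The part of GC content in these low values was not tested. LYPLA1 was called without BAQ12-3 (adjusted p = 0.014) and ABHD10 without BAQ12-3 and BAQ13-1 together (0.039). Leaving out BAQ12-3 alone raised the calls over all genes with BAQ13 from 606 to 1436. PPT2, the second lysosomal thioesterase, stood near 13 in vehicle and at 8.40 to 12.8 with BAQ13.

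The opposing reaction, addition of palmitate, is carried out by the ZDHHC enzymes. Of 23 listed, 16 were tested and 1 was called with BAQ13, a share near the 5.77% of all genes called. It was ZDHHC9, a palmitoyltransferase of Ras proteins, which was read at 357, 377 and 379 in vehicle and at 482, 463 and 456 with BAQ13. It rose by 0.33 ± 0.08 (adjusted p = 0.016) and kept its call in 24 of 29 settings, with adjusted p from 0.0031 to 0.072, and lost it without any 1 of the 3 vehicle libraries, BAQ13-1 or BAQ13-2. The 16 genes split into 8 positive and 8 negative estimates with BAQ13, with a median of 0.01 and a range from −0.77 to 0.72.

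Of 11 partners of these proteins in sorting and folding, all tested, 1 was called with BAQ13, against 5.77% of all genes. This gene, PSAP (prosaposin, which binds progranulin and travels with it to lysosomes), was read at 853, 798 and 856 in vehicle and at 1014, 1044 and 940.3 with BAQ13. It rose by 0.26 ± 0.07 (adjusted p = 0.030) and was called in 19 of 29 settings, with adjusted p from 0.0057 to 0.15. The call was lost without any 1 of the 3 vehicle libraries, BAQ13-1 or BAQ13-2, with no filter (0.11), with the block (0.051), with the GC correction (0.088, and 0.13 with the block) and in the test of 2 samples (0.13). Besides PSAP, edgeR called MCFD2 (adjusted p = 0.047). M6PR and IGF2R, the receptors that carry enzymes marked with mannose 6-phosphate, were 0.45 and 0.41 above vehicle with BAQ13 without overlap (adjusted p = 0.072 and 0.068). In the other direction, SURF4 and MCFD2, which act in export from the endoplasmic reticulum, were 0.37 and 0.34 below vehicle, differences of −0.37 and −0.34 (adjusted p = 0.063 and 0.057). With BAQ13, 4 of the 11 partners lay wholly above vehicle and 4 wholly below it, against 14.5% and 14.4% of all genes tested. M6PR, IGF2R, SURF4 and MCFD2 were called without BAQ12-3 (adjusted p = 0.0043, 0.024, 0.0064 and 0.016), and SGTA, a co-chaperone, was called there too (0.033). Leaving out BAQ12-3 raised the calls over all genes with BAQ13 from 606 to 1436. M6PR was also called after the GC correction (0.037, and 0.035 with the block), with only the 6 libraries compared (0.017), without BAQ12-3 and BAQ13-1 together (0.0014) and without BAQ12-1 (0.049). SURF4 was also called with only the 6 libraries compared (0.032), without BAQ12-3 and BAQ13-1 together (0.020) and without BAQ12-2 (0.047). MCFD2 was also called without BAQ12-3 and BAQ13-1 together (0.0084) and with at least 10 reads in every library (0.044). No partner was called with Lys05, BAQ12 or BAQ12O by limma, edgeR or DESeq2, where 2, 0 and 4 of them had unadjusted p-values under 0.05 by limma, against 4.98%, 11.8% and 12.8% of all genes.

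Of the MiT/TFE factors, TFE3 was the only one with enough reads to be tested. It gave 281, 259 and 249 normalised counts in vehicle and 439, 297 and 279 with BAQ13, which overlapped, a difference of 0.33 (0.01 to 0.65, adjusted p = 0.23), and its highest value came from BAQ13-1. Without BAQ12-3 it was called (adjusted p = 0.049), where calls over all genes with BAQ13 rose from 606 to 1436. With BAQ12 TFE3 was read at 284, 291 and 403, and with BAQ12O at 312, 309 and 312, all above every vehicle library. This held for 7.75% and 12.5% of all genes tested. The differences were 0.29 and 0.24, and neither was called. Over 29 settings the BAQ12O difference was called in 1, with adjusted p from 0.048 to 0.79. Lys05 overlapped vehicle. TFEB stayed at or below 5.47 normalised counts in every library, and MITF at or below 3.65.

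**Figure D5:**
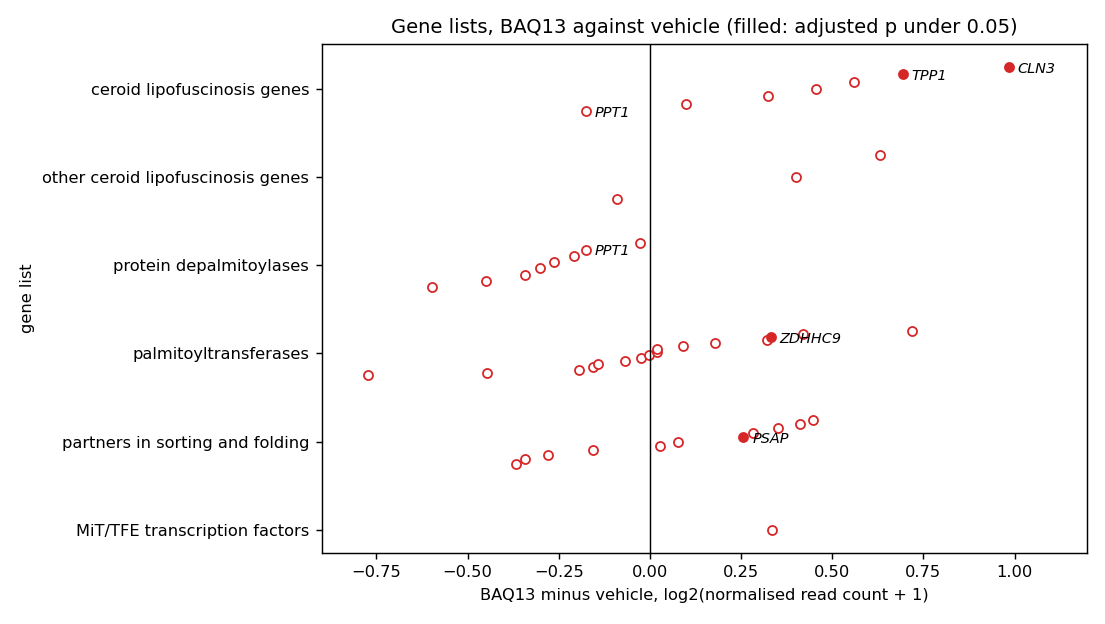
Log2 fold change with BAQ13 against vehicle (horizontal axis) of every tested gene of the lists described above, by list. Points are genes, filled where called and spread vertically within a list for legibility. The 8 depalmitoylases all lie below 0 as plotted, ABHD17B at −0.03 with a sign that turned positive in some settings, and TPP1, CLN3, ZDHHC9 and PSAP are the called genes.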

How the data were processed

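RNA-seq of MIA PaCa-2 cells was analysed from 15 deposited tables, 1 per library, whose labels gave the group and the replicate number. The authors deposited a normalised expression signal per gene, that is, reads scaled by 1 factor per library. Per the labels the tools were STAR, HTSeq and DESeq2 with GRCh38, without versions, and the use of strand in counting is not given in the sources used here. The methods name a stranded paired-end kit and the labels a 3′-end kit, so levels were not compared between genes. All values (100%) were whole multiples, within 0.01, of 1 step per library, which gave the reads back, at 1586566 to 2500551 per library. Rows for 92 spike-ins were at 0 and were left out.

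Genes were kept by filterByExpr of edgeR by group (minimum count 10, minimum total 15), and log2(value + 1) was fitted with limma (eBayes, variance trend) over all 15 libraries without covariates. limma's p-values received a Benjamini-Hochberg adjustment over the genes in each comparison with vehicle and over all 6 pairs of agents together. edgeR (quasi-likelihood) and DESeq2 on the recovered reads were alternatives, with pseudocounts of 0.1 and 5, other filters, TMM scaling, a replicate block, a fit of the 6 libraries compared, a test of 2 samples per gene and the omission of each library. The GC correction, alone and with the block, and the omission of BAQ12-3 and BAQ13-1 together were added after seeing the data. All 8 members were named, and other genes come from lists compiled by function. Results of 1 listed gene were left out. The members and lists were chosen with earlier results of these data known. Loci came from GENCODE 29 (GRCh38), which held 56531 of the 60107 identifiers. Scripts were tested on simulated data, in which limma recovered 65.5% of 200 genes changed 2-fold between BAQ13 and vehicle among 10495, with 9 false calls. R 4.3.3, limma 3.58.1, edgeR 4.0.16 and DESeq2 1.42.0 were used.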

Additional observations from a re-analysis of the deposited data

How the results depend on the processing

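The increase of TPP1 with BAQ13 was called under every alternative run. Counts of called members changed as follows. Calls over all genes changed with the settings too, so a change in these counts is not by itself a result about the members. Without BAQ12-3 and BAQ13-1, calls over all genes rose from 155 to 970 with BAQ12O. They also rose from 442 to 1896 over the pairs and from 318 to 1347 for any difference. In the test of 2 samples they fell from 606 to 173 with BAQ13 and from 155 to 33 with BAQ12O. With BAQ13, 1 was called in place of 2 under the replicate block and in the test of 2 samples per gene, 3 with only the 6 libraries compared and without BAQ12-3 and BAQ13-1, where GRN was added, and leaving out single libraries gave 1 to 3. With BAQ12O, 2 were called with only the 6 libraries compared, where GRN was added, and without BAQ12-3 and BAQ13-1, and 0 in the test of 2 samples, while leaving out single libraries gave 0 to 1. Over the pairs of agents, 2 differences were called without BAQ12-3 and BAQ13-1, and 0 to 2 without single libraries. In the test of any difference among the 5 groups, 2 members were called without those libraries, and 1 to 3 without single libraries. With Lys05 and BAQ12 the count was 0 throughout. Calls over all genes ran from 15 to 114 with Lys05 (25 as reported), 5 to 222 with BAQ12 (103), 173 to 1436 with BAQ13 (606), 33 to 970 with BAQ12O (155), 278 to 1896 over the pairs (442) and 205 to 1347 for any difference (318). The lowest counts came from the test of 2 samples or, for the last pair of counts, from leaving out BAQ13-2, and the highest from leaving out BAQ12-3 alone (BAQ13) or with BAQ13-1, except with Lys05, where the fit of the 6 libraries gave it.

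Deviations of treated libraries from their group mean correlated with those of the same-numbered vehicle library at −0.16 to 0.15. Differently numbered libraries were not correlated for comparison, so whether the replicate numbers pair the libraries was not settled. With the replicate block 512 genes were called with BAQ13, and CLN3 was not (adjusted p = 0.0513). The block with the GC correction called 2 members with BAQ13.

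Signs turned when single libraries were left out only for values not called. The ranges were −0.024 to 0.064 for PPT1 with Lys05, −0.096 to 0.53, −0.083 to 0.58 and −0.074 to 0.52 for CLN6 with Lys05, BAQ12 and BAQ12O, −0.095 to 0.46 for MFSD8 with BAQ12O, −0.14 to 0.041 and −0.061 to 0.062 for DNAJC5 with BAQ12 and BAQ12O, and −0.37 to 0.078 for ATP13A2 with BAQ13. CLN6 was not tested where at least 10 reads were required in every library. The cause of these changes was not tested. Depth limits CLN6, CLN8, MFSD8 and CLN3 most, at 0 to 65 reads per library.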
